A study of Mus musculus with 6 samples.

Results

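Expression of 40 genes of the G2 phase and mitosis was followed in splenic plasmacytoid dendritic cells (pDCs) labelled as deficient or wild type for the transcription factor IRF8. The genes were chosen by name for their roles in chromosome condensation, mitotic entry, spindle assembly, chromosome attachment, the spindle checkpoint, mitotic exit and cytokinesis. Of the 40, 39 had a probe set that is annotated to that gene alone, out of 19937 genes measured in this way, and Ccnb1 was not analysed here. Where a gene had several probe sets, the brightest over the 6 arrays stood for it, which among the 39 applied only to Top2a.

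In dividing cells these genes are transcribed late in the cycle, peak in G2 and mitosis, and are kept low in resting cells by repressor complexes that bind their promoters. Cyclins A and B switch on the kinase CDK1, condensin and topoisomerase II compact the chromosomes, and kinetochores tie them to the spindle. The spindle checkpoint holds back the anaphase promoting complex until every chromosome is attached, after which the cell divides by cytokinesis. Mature pDCs are known as largely non-dividing cells that arise from dividing bone marrow precursors.

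Splenic cells positive for B220 and SiglecH came from mice labelled IRF8-deficient (KO) and wild type (WT), with 3 arrays of each genotype. The allele, strain, age, treatment and number of animals behind each array were not given in the sources used here, so the p-values below reflect variation among these samples alone, and that variation could be technical. The RNA went through NuGen PICO SL amplification before hybridisation to Affymetrix arrays, and the values are log2 expression levels. Array medians lay between 5.53 and 5.56, and without detection calls a low value cannot be read as an absent transcript. In bulk RNA, fewer cells of a type and less RNA per cell cannot be told apart.

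Irf8 itself was not lower in the arrays labelled KO, with 10.48 ± 0.32 in KO and 10.14 ± 0.15 in WT (SD, n = 3 each; limma adjusted p = 0.425), and the altered part of the gene was not given in the sources used here, so this probe set does not check the labels. Siglech, the gene of the sorting marker, averaged 12.27 ± 0.08 in KO and 12.62 ± 0.12 in WT, and Ptprc, which encodes B220, averaged 11.60 ± 0.25 in KO and 11.47 ± 0.14 in WT (SD, n = 3 each). Over 13 pDC markers the median shift was -0.36, -0.28 and -0.33 in KO replicates 1 to 3, against 0.0079, -0.083 and 0.078 in WT replicates 1 to 3. Limma called 0 of the 13 higher in KO and 3 lower, namely Pacsin1 (difference -0.78), Ccr9 (-0.97) and Tlr7 (-0.60), while 5 of the 13 had a positive difference. Without KO replicate 1 it called 1 higher and 4 lower, beside 3.91% and 3.61% of all genes. The part of these changes in the G2 and mitosis values was not tested. On the second principal component KO replicate 1 lay at 37.4, against -13.2 and -16.8 for KO replicates 2 and 3, and WT replicate 1 lay at 16.3, against -8.23 and -15.4 for the other WT arrays. Correlations across genes ran from 0.977 to 0.993 within KO and from 0.984 to 0.986 within WT. Results are therefore given with KO replicate 1 shown apart from KO replicates 2 and 3.

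Most G2 and mitosis genes were far higher in KO replicate 1 than in any other array. In a smaller set KO replicates 2 and 3 also lay above every WT array, by less than KO replicate 1 did. Relative to each gene's WT mean, the median shift over the 39 genes was 1.79, 0.32 and 0.27 log2 units in KO replicates 1 to 3, and it lay between -0.022 and 0.060 in the WT arrays. KO replicate 1 held the highest of the 6 values in 38 of the 39 genes, the exception being Racgap1, while it did so in 19.6% of all genes. At least 2-fold higher levels than the WT mean were found for 32 of the 39 genes in KO replicate 1 and for 2 of 39 in the mean of KO replicates 2 and 3. The SD was larger in KO than in WT for all 39 genes, with a median of 0.97 in KO and 0.20 in WT.

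With all 6 arrays, limma called 0 of the 39 genes higher and 0 lower in KO at an adjusted p of 0.05, beside 2.30% of all genes called higher and 2.08% called lower. The unequal-variance test per gene also called 0 and 0. At an unadjusted p under 0.05 limma had 11 members higher and 1 lower, where 7.58% of all genes were higher and 8.49% lower. The difference, KO minus WT, was positive for 37 of the 39, against 41.8% of all genes, and its median was 0.79 over the members and -0.04 over all genes. In 19 of the 39 genes all 3 KO arrays lay above all 3 WT arrays, which held for 8.71% of all genes, and in the same 19 KO replicates 2 and 3 did so, which held for 14.6%. Only Racgap1 had all 3 KO arrays below all 3 WT arrays, which held for 11.7% of all genes. KO replicates 2 and 3 lay below all WT arrays in Racgap1 and Foxm1, 2 of the 39, and in 23.1% of all genes, and they overlapped the WT range in the other 18.

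**Figure D1:**
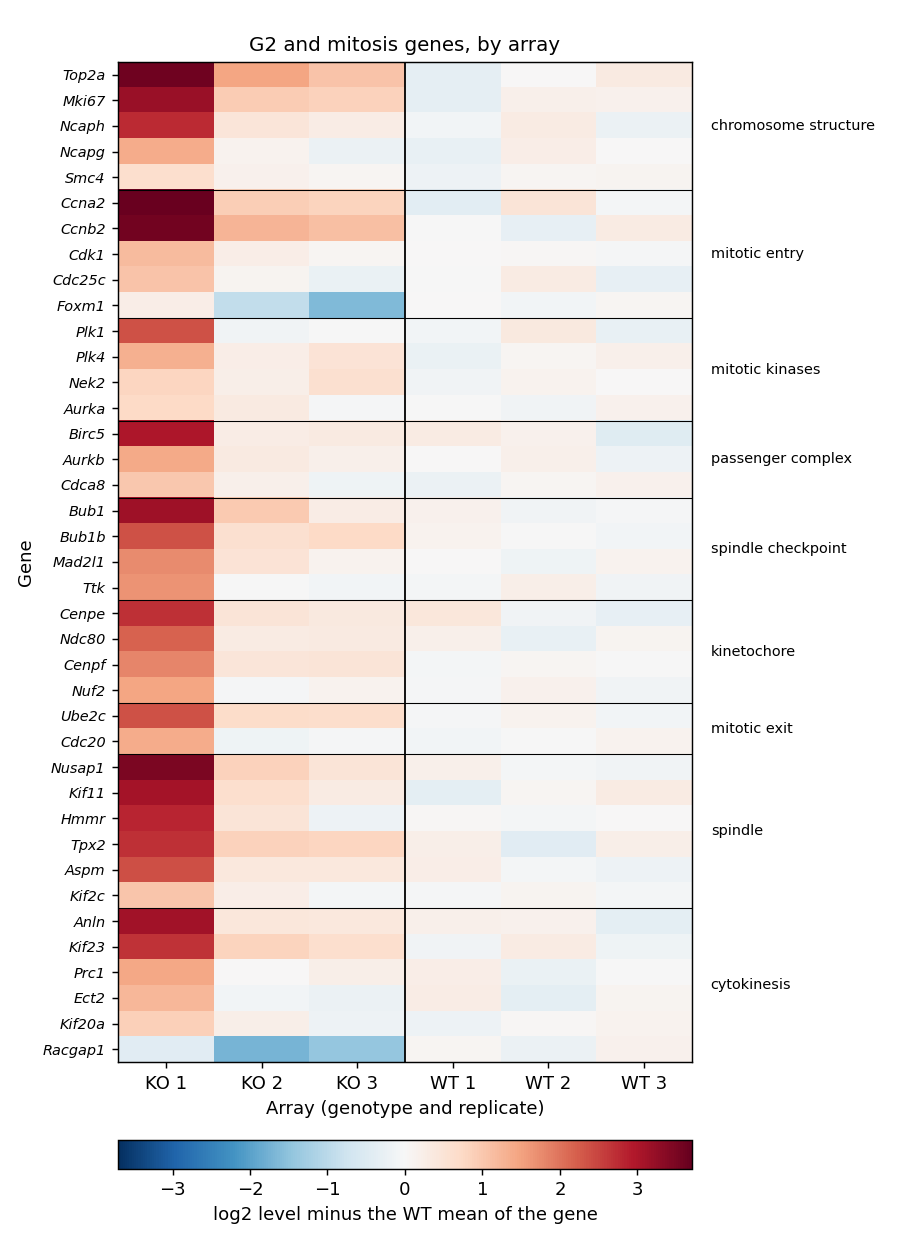
Each row is a gene and each column an array, with KO arrays left of WT arrays, and colour gives the log2 level minus the gene's WT mean (red higher, blue lower), with genes grouped by role. KO replicate 1 is red in nearly every row, with shifts of up to 3.66, while Foxm1 and Racgap1 are the rows in which KO replicates 2 and 3 lie below all 3 WT arrays.

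Without KO replicate 1, limma called 5 of the 39 genes higher in KO (Top2a, Ccnb2, Mki67, Ube2c and Bub1b) and 2 lower (Racgap1 and Foxm1), beside 3.91% and 3.61% of all genes. The spread within KO was then much smaller: the median standard error of a member's difference was 0.17, against 0.42 with all arrays. KO replicate 1 was set apart with its values known and was the highest array in 38 of the 39. The smaller spread therefore follows from that choice, and every call and adjusted p without this array is conditional on it. The median difference over the 39 was 0.31, against -0.06 over all genes, and 31 of the 39 were positive, against 39.4% of all genes. With both arrays numbered 1 left out, the same 5 genes and also Cenpe and Nusap1 were called higher, and Racgap1 and Foxm1 lower, beside 3.72% and 3.22% of all genes. With all arrays and a block for replicate number, Tpx2 was called higher and Racgap1 lower, 1 of 39 each, beside 3.55% and 3.29% of all genes.

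**Figure D2:**
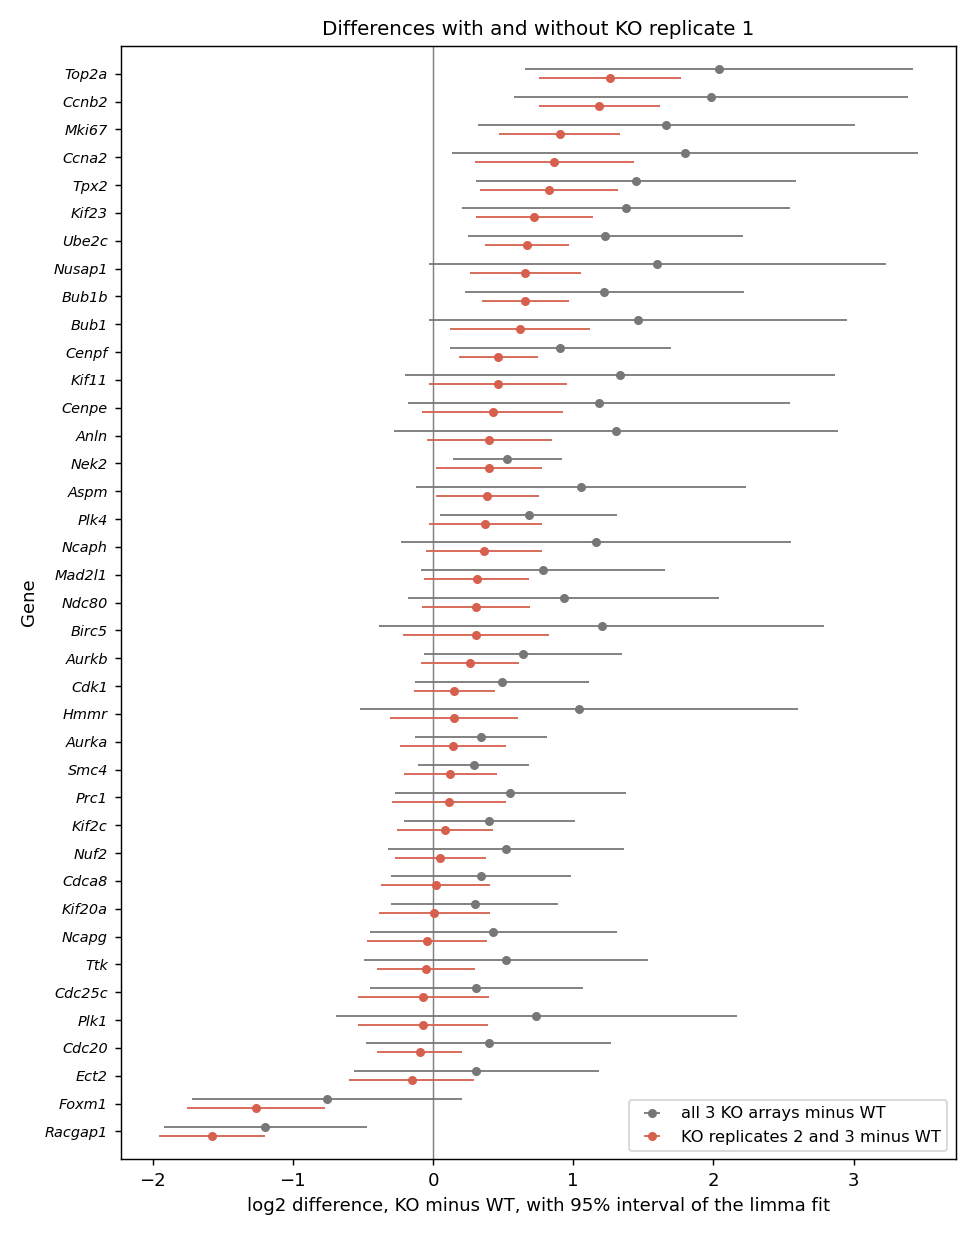
Points are log2 differences, KO minus WT, for the 39 genes, and bars are 95% intervals of the limma fit, in grey for all 3 KO arrays and in red for KO replicates 2 and 3 alone. Leaving out KO replicate 1 narrows the intervals and moves the median difference to 0.31, against 0.79 with all arrays, and Foxm1 and Racgap1 stand apart at the negative end.

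Promoters are shown for the 4 members with the smallest limma adjusted p among those whose window held both elements described below. The presence of both elements in these 4 windows was therefore fixed by the choice. Limma called none of the 4 with all arrays (adjusted p 0.0895 to 0.193). They set genes that were higher beside a gene that was lower. Cell cycle promoters of this class are known for CCAAT boxes, bound by the factor NF-Y, and for the cell cycle genes homology region, a TTTGAA or TTCGAA element bound by the DREAM and MuvB complexes, which repress these genes in resting cells and, with B-MYB and FOXM1, activate them in G2. The sequences are RefSeq windows of build GRCm38.p6 that run from 250 bases before to 25 bases after the annotated start. Capitals mark the CCAAT box, TTTGAA or TTCGAA on either strand (ATTGG and TTCAAA are the reverse complements of CCAAT and TTTGAA, and TTCGAA is its own), and overlapping matches are both marked.
Racgap1 (chr15:99651632-99651906, minus strand): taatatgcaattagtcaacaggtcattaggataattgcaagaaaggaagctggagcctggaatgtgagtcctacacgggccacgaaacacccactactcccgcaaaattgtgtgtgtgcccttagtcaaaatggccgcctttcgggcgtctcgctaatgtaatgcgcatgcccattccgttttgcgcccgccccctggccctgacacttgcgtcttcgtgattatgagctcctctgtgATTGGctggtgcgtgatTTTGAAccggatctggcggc
Top2a (chr11:99024165-99024439, minus strand): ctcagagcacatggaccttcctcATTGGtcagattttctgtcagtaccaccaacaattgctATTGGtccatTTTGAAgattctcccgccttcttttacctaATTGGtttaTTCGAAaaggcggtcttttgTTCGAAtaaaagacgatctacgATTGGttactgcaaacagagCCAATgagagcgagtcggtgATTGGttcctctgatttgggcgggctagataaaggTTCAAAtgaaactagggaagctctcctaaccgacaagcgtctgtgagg
Ccnb2 (chr9:70421530-70421804, minus strand): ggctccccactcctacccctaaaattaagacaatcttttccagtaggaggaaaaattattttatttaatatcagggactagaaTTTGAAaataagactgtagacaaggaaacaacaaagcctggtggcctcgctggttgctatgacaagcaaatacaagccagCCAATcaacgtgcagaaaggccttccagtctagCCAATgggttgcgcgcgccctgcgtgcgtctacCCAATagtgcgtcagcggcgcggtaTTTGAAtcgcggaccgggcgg
Ube2c (chr2:164769679-164769953, plus strand): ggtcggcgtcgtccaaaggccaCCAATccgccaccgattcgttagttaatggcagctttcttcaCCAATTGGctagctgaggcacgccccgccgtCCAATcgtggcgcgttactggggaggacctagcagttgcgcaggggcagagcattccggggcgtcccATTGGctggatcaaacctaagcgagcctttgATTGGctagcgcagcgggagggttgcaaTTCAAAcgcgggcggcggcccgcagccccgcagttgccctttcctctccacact

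The Racgap1 window held 1 CCAAT box at -12 and 1 TTTGAA element at base 6 after the start. In Ccnb2, 3 CCAAT boxes began at -87, -54 and -21, followed by TTTGAA at base 5, with a further TTTGAA at -167. Top2a carried 6 CCAAT boxes, 2 TTTGAA and 2 TTCGAA matches, and Ube2c 6 CCAAT matches, 2 of which overlap, with 1 TTTGAA match at -29. Of the 33 members with a window in the RefSeq table, counted over 250 bases before to 50 after the first listed start, 24 held a CCAAT box, 24 held TTTGAA or TTCGAA, and 21 held both. Over all 27025 genes of that table the shares were 37.9%, 19.4% and 7.70%. The 21 genes with both had a median KO minus WT of 0.91, and ran from -1.20 to 2.04, and the 11 measured genes without both had a median of 0.93. Without KO replicate 1 these medians were 0.15 for the genes with both and 0.37 for the others, and the difference between them was not tested. A match of letters is a description of the window and not evidence of binding.

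Genes of chromosome structure included 2 of the 5 genes called higher without KO replicate 1. Mki67, which encodes the proliferation antigen Ki-67 that coats mitotic chromosomes, measured 9.25, 7.02 and 6.92 in KO replicates 1 to 3, against 5.72, 6.26 and 6.21 in WT replicates 1 to 3. Every KO array lay above every WT array, and KO replicate 1 was 9.12-fold above the WT mean. The log2 difference was 1.67 (SE 0.58, limma adjusted p = 0.198), and without KO replicate 1 Mki67 rose by 0.90 (SE 0.18, limma adjusted p = 0.0285), or 1.87-fold. Over the 15 alternatives the adjusted p of Mki67 ran from 0.0227 to 0.621.

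Top2a, the type II topoisomerase that untangles sister chromatids, measured 9.32, 7.20 and 6.79 in KO replicates 1 to 3, against 5.40, 5.74 and 6.06 in WT replicates 1 to 3. Again the groups did not overlap. The log2 difference was 2.04 (SE 0.59, limma adjusted p = 0.124), and without KO replicate 1 Top2a rose 2.40-fold (limma adjusted p = 0.0149, range over alternatives 0.0149 to 0.580). A second, dimmer Top2a probe set did not share this pattern, with 4.37, 5.16 and 4.86 in KO replicates 1 to 3, against 4.41, 5.54 and 4.66 in WT replicates 1 to 3.

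The condensin genes were less uniform. Ncaph, a condensin I subunit, measured 6.93, 4.64 and 4.46 in KO replicates 1 to 3, against 4.08, 4.49 and 3.98 in WT replicates 1 to 3. Ncapg, of the same complex, was at 6.44 in KO replicate 1, while KO replicates 2 and 3, at 5.19 and 4.86, lay within the WT range of 4.80 to 5.30. Smc4, the ATPase subunit shared by condensins I and II, differed by 0.29 (95% interval -0.11 to 0.68, limma adjusted p = 0.489).

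Among genes of mitotic entry, the cyclins were higher in every KO array and the transcription factor FOXM1 was not. Ccnb2, a B-type cyclin that activates CDK1, measured 9.20, 6.88 and 6.73 in KO replicates 1 to 3, against 5.62, 5.32 and 5.92 in WT replicates 1 to 3. The lowest KO array was above the highest WT array. The log2 difference was 1.99 (SE 0.60, limma adjusted p = 0.141), and without KO replicate 1 Ccnb2 rose 2.28-fold (limma adjusted p = 0.0102, range over alternatives 0.0102 to 0.592).

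Ccna2, the cyclin of S phase and G2, measured 8.82, 6.07 and 5.97 in KO replicates 1 to 3, against 4.76, 5.64 and 5.07 in WT replicates 1 to 3. Its KO replicate 1 stood 12.7-fold above the WT mean, the highest such ratio among the members. Without KO replicate 1 the difference was 0.86 and did not pass the adjusted threshold (unadjusted p = 0.00835, limma adjusted p = 0.0836, range over alternatives 0.0836 to 0.648). Cdk1, the mitotic kinase itself, was at 6.33, 5.39 and 5.23 in KO replicates 1 to 3, against 5.17, 5.19 and 5.11 in WT replicates 1 to 3. The groups were separate, but KO replicate 3 exceeded the highest WT array by little. Cdc25c, the phosphatase that activates CDK1, was at 5.17 in KO replicate 1, with KO replicates 2 and 3, at 4.20 and 3.86, inside the WT range of 3.80 to 4.40.

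Foxm1, a transcription factor that activates G2 and mitosis genes, differed in direction between KO replicate 1 and the other KO arrays. It measured 7.01, 5.85 and 5.12 in KO replicates 1 to 3, against 6.76, 6.66 and 6.83 in WT replicates 1 to 3. KO replicate 1 lay just above the WT arrays and the other KO arrays clearly below them. Over all arrays the difference was -0.76 (SE 0.41, limma adjusted p = 0.451). Without KO replicate 1, Foxm1 fell by 1.26 (SE 0.21, limma adjusted p = 0.0135, range over alternatives 0.0135 to 0.826).

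Of the 4 mitotic kinases, Plk1 was high in KO replicate 1 alone, Aurka in 2 of the 3 KO arrays, and Plk4 and Nek2 in all 3. Plk1, which drives centrosome maturation and mitotic progression, measured 7.08, 4.58 and 4.72 in KO replicates 1 to 3, against 4.63, 5.09 and 4.45 in WT replicates 1 to 3. KO replicates 2 and 3 lay inside the WT range, and without KO replicate 1 the difference was -0.072 (95% interval -0.54 to 0.39). Aurka, the spindle pole kinase, was at 6.85 in KO replicate 1, and at 6.42 and 6.05 in KO replicates 2 and 3, the last within the WT range of 5.96 to 6.26.

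In Plk4, the kinase of centriole duplication, and Nek2, which separates centrosomes, every KO array lay above every WT array. Plk4 measured 7.41, 6.34 and 6.62 in KO replicates 1 to 3, against 5.85, 6.17 and 6.30 in WT replicates 1 to 3. Nek2 measured 5.29, 4.71 and 5.10 in KO replicates 1 to 3, against 4.36, 4.63 and 4.52 in WT replicates 1 to 3. KO replicate 1 exceeded the mean of KO replicates 2 and 3 by 0.39 in Nek2, the smallest such gap of the 39, and its difference of 0.53 (SE 0.17) had a limma adjusted p of 0.155.

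The chromosomal passenger complex, which corrects faulty attachments, was measured through its kinase Aurkb and the subunits Birc5 (survivin) and Cdca8 (borealin). Aurkb measured 7.02, 5.95 and 5.82 in KO replicates 1 to 3, against 5.65, 5.80 and 5.42 in WT replicates 1 to 3, so that the groups were narrowly separate. Birc5 measured 8.44, 5.72 and 5.76 in KO replicates 1 to 3, against 5.74, 5.59 and 4.98 in WT replicates 1 to 3. It was 7.99-fold above the WT mean in KO replicate 1, while KO replicate 2 lay within the WT range. Cdca8 differed by 0.34 (95% interval -0.30 to 0.99), and by 0.018 without KO replicate 1 (95% interval -0.37 to 0.41).

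Checkpoint genes split into a pair that was higher in every KO array and a pair that was not. Bub1b, which encodes the checkpoint protein BUBR1, measured 7.51, 5.74 and 5.89 in KO replicates 1 to 3, against 5.28, 5.15 and 5.05 in WT replicates 1 to 3. The groups did not overlap, and without KO replicate 1 Bub1b rose 1.58-fold (limma adjusted p = 0.0275, range over alternatives 0.0275 to 0.625). Bub1, the kinase that recruits it to kinetochores, measured 6.51, 4.33 and 3.64 in KO replicates 1 to 3, against 3.52, 3.25 and 3.32 in WT replicates 1 to 3. Mad2l1, the checkpoint effector MAD2, was at 7.80, 6.56 and 6.18 in KO replicates 1 to 3, where the last value lay just under the highest WT value of 6.20. Ttk, the kinase MPS1, was at 5.33 in KO replicate 1, while KO replicates 2 and 3, at 3.67 and 3.57, lay within the WT range of 3.53 to 3.89.

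Kinetochore genes were all at least 2-fold above the WT mean in KO replicate 1, with shifts of 1.46 to 2.71. Cenpf, a kinetochore protein of G2 cells, measured 6.26, 4.92 and 4.95 in KO replicates 1 to 3, against 4.41, 4.55 and 4.45 in WT replicates 1 to 3. Its groups were separate, and without KO replicate 1 the difference was 0.47 (limma adjusted p = 0.0637, range over alternatives 0.0637 to 0.637). Ndc80, which binds microtubules, was also higher in every KO array, with KO replicates 2 and 3 at 5.22 and 5.26 against a highest WT value of 5.11. Its partner Nuf2 was at 4.01 and 4.19 in those KO arrays, within the WT range of 3.93 to 4.20. Cenpe, the kinetochore kinesin, was at 7.17, 4.95 and 4.82 in KO replicates 1 to 3, against 4.89, 4.34 and 4.15 in WT replicates 1 to 3. It was called higher only with both arrays numbered 1 left out (difference 0.64, limma adjusted p = 0.0462, range over alternatives 0.0462 to 0.698).

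The genes of mitotic exit differed from each other. Ube2c, the ubiquitin-conjugating enzyme that serves the anaphase promoting complex, measured 7.81, 6.15 and 6.12 in KO replicates 1 to 3, against 5.42, 5.60 and 5.37 in WT replicates 1 to 3. All KO arrays were above all WT arrays, and without KO replicate 1 Ube2c rose 1.59-fold (limma adjusted p = 0.0225, range over alternatives 0.0225 to 0.622). Cdc20, the activator that targets this complex to mitotic cyclins and securin, measured 6.50, 4.96 and 5.08 in KO replicates 1 to 3, against 5.01, 5.10 and 5.24 in WT replicates 1 to 3. Only KO replicate 1 was high, and without it the difference was -0.096 (95% interval -0.40 to 0.21).

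**Figure D3:**
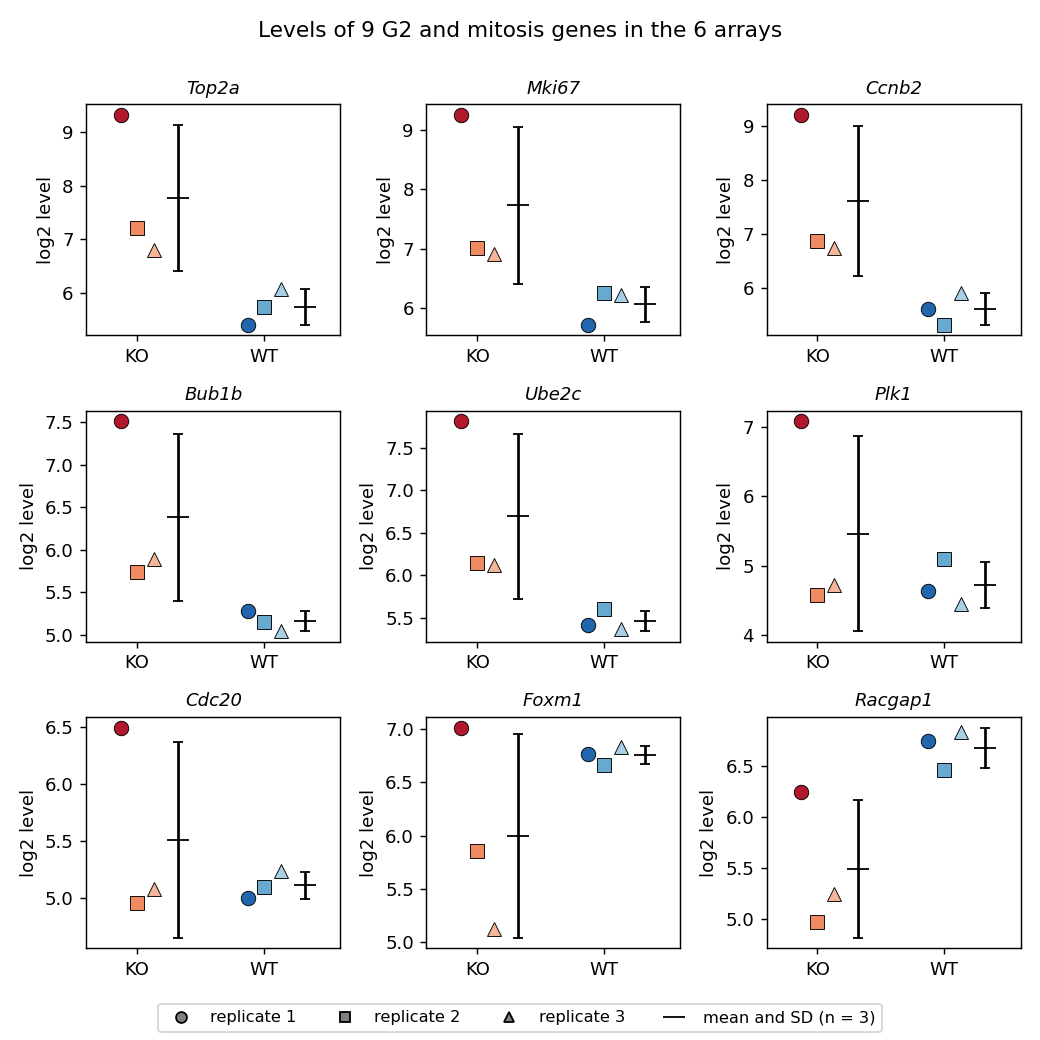
Points are log2 levels of 9 of the genes in the 6 arrays, KO left of WT, with a marker shape for each replicate number, and bars give the group mean with its SD (n = 3). Top2a, Mki67, Ccnb2, Bub1b and Ube2c are above WT in every KO array, Plk1 and Cdc20 in KO replicate 1 alone, and Foxm1 and Racgap1 are below WT in KO replicates 2 and 3.

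Spindle genes had the largest median shift of any role group of 3 or more genes in KO replicate 1, at 2.76. Chromosome structure genes were close, at 2.75. All 6 spindle genes stayed positive without that array, as did all 4 kinetochore genes and all 3 passenger complex genes. Tpx2, which activates Aurora A on the spindle, measured 7.34, 5.51 and 5.44 in KO replicates 1 to 3, against 4.86, 4.22 and 4.86 in WT replicates 1 to 3. Without KO replicate 1 the difference was 0.83 (limma adjusted p = 0.0607), and with the replicate number as a block the adjusted p was 0.0483, the lowest over the alternatives, where the highest was 0.602. Nusap1, a microtubule bundling protein, measured 8.42, 5.79 and 5.40 in KO replicates 1 to 3, against 5.13, 4.87 and 4.80 in WT replicates 1 to 3. It was called higher only with both arrays numbered 1 left out (difference 0.76, limma adjusted p = 0.0448, range over alternatives 0.0448 to 0.682).

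Kif11, the kinesin that pushes spindle poles apart, was at 8.08, 5.64 and 5.30 in KO replicates 1 to 3, where the last value lay level with the highest WT value, also 5.30. Aspm, a spindle pole protein, was at 4.41 and 4.43 in KO replicates 2 and 3, above the highest WT value of 4.29. Hmmr, a spindle assembly factor, measured 5.89, 3.54 and 2.89 in KO replicates 1 to 3, the first 2 above and the last below the WT range of 3.00 to 3.10. Kif2c, a kinesin that depolymerises microtubules, differed by 0.0845 without KO replicate 1 (95% interval -0.26 to 0.42).

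Differences of the 6 cytokinesis genes ran from -1.20 to 1.38. Racgap1, the GTPase-activating protein of the centralspindlin complex, measured 6.25, 4.97 and 5.25 in KO replicates 1 to 3, against 6.75, 6.46 and 6.84 in WT replicates 1 to 3. All KO arrays were below all WT arrays. With all arrays the difference was -1.20 (SE 0.31, limma adjusted p = 0.0895), the smallest adjusted p of the 39, and without KO replicate 1 Racgap1 fell by 1.58 (SE 0.16, limma adjusted p = 0.00197). Racgap1 was also called lower with array weights, when replicate numbers entered as a block and without both arrays numbered 1. It was called in no other alternative, and over all alternatives its adjusted p ran from 0.00197 to 0.538.

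Kif23, which encodes the kinesin partner of RACGAP1 in centralspindlin, went the other way. It measured 8.41, 6.55 and 6.35 in KO replicates 1 to 3, against 5.59, 6.04 and 5.55 in WT replicates 1 to 3, with no overlap. Its difference was 1.38 (SE 0.50, limma adjusted p = 0.221), and 0.72 without KO replicate 1 (limma adjusted p = 0.0557, range over alternatives 0.0557 to 0.629). The difference between these partners was not tested.

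Ect2, the exchange factor that RACGAP1 is known to activate, was at 6.44 in KO replicate 1 and, at 5.11 and 4.999 in KO replicates 2 and 3, within the WT range of 4.85 to 5.47. Anln, the scaffold anillin of the contractile ring, measured 7.07, 4.38 and 4.34 in KO replicates 1 to 3, against 4.16, 4.13 and 3.59 in WT replicates 1 to 3. Prc1, which bundles the central spindle, and Kif20a, the kinesin that carries passenger proteins there, were highest in KO replicate 1 at 6.09 and 5.64. Their differences without that array were 0.11 (95% interval -0.29 to 0.52) and 0.0085 (95% interval -0.39 to 0.41).

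Signal level limits some of these values. In 12 of the 39 genes the WT mean was under 4.56, so these fold changes rest on dim signals. Of all single values, taken over every gene and array, 25% fall under that level. Of the 39, 16 had a mean level above the median of all genes. Of those 16, limma called 0 with all arrays when dimmer genes were left out of the fit.

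Genes of the same pathway outside the 39 were also highest in KO replicate 1, with smaller median shifts. Of 75 further mitotic genes measured, 4 were called higher and 0 lower by limma with all arrays, and 68 had a positive difference, with a median of 0.49. The median shift was 0.96, 0.21 and 0.10 in KO replicates 1 to 3, and KO replicate 1 was the highest array in 61 of the 75. Of 38 S phase and replication genes, 1 was called higher and 0 lower by limma. It was Mcm6, a subunit of the replicative helicase, which rose 2.72-fold (limma adjusted p = 0.0204, range over alternatives 0.00659 to 0.446). The list's median shifts were 1.04, 0.14 and 0.26 in KO replicates 1 to 3.

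The 4 further mitotic genes called higher with all arrays were centromere and condensin genes. Cenpa, the histone H3 variant of centromeres, measured 9.32, 9.70 and 9.97 in KO replicates 1 to 3, against 7.71, 7.89 and 8.33 in WT replicates 1 to 3. It rose 3.21-fold (limma adjusted p = 0.00578, range over alternatives 0.000529 to 0.220), and KO replicate 1 was the lowest KO array. Cenpl, of the inner kinetochore, rose by 0.80 with KO values of 6.25, 6.37 and 6.34 (limma adjusted p = 0.00908). The condensin subunits Ncapd2 and Ncapd3 rose by 1.19 and 0.62 (limma adjusted p = 0.0237 and 0.0486), Ncapd3 being named after its values were seen. The unequal-variance test per gene called none of the 4. The call of Cenpl was lost without KO replicate 2, and that of Ncapd2 without KO replicate 2 or any WT replicate. That of Ncapd3 was lost when any single array or both arrays numbered 1 were left out. It was also lost with quantile normalization, centred medians and robust limma with a variance trend. Without KO replicate 1, limma called 5 of the 75 higher, beside 3.91% of all genes. They included Wee1 (difference 1.90, limma adjusted p = 0.0199) and Bora (0.59, limma adjusted p = 0.0343). These are neither centromere nor condensin genes and were named after their values were seen.

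Among 24 regulators of cell cycle transcription, 2 were called higher and 0 lower. Myc rose 7.39-fold and was at 9.69, 8.37 and 8.61 in KO replicates 1 to 3 (limma adjusted p = 0.00289). Tfdp1, the partner of E2F factors, rose by 0.61 (limma adjusted p = 0.0342), a call lost with each single array left out except KO replicate 1. E2f4, a repressor E2F, differed by -0.48 (limma adjusted p = 0.110). Of 9 G1 cyclins and kinases, Cdk6, which binds D-type cyclins, rose 2.02-fold (limma adjusted p = 0.00852), while Ccnd1 and Ccnd2 differed by 0.70 and 0.62 (limma adjusted p = 0.0818 and 0.119). All 9 had a positive difference. Of 11 CDK inhibitors and antiproliferative genes, 16 subunits and partners of the anaphase promoting complex and 9 cohesin genes, limma called 0 in either direction with all arrays, and their median differences were -0.029, 0.016 and 0.28. At an unadjusted p under 0.05 the CDK inhibitors had 0 higher and 2 lower, the anaphase promoting complex 2 higher and 1 lower and cohesin 6 higher and 0 lower, and the unequal-variance test called 0 in each.

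**Figure D4:**
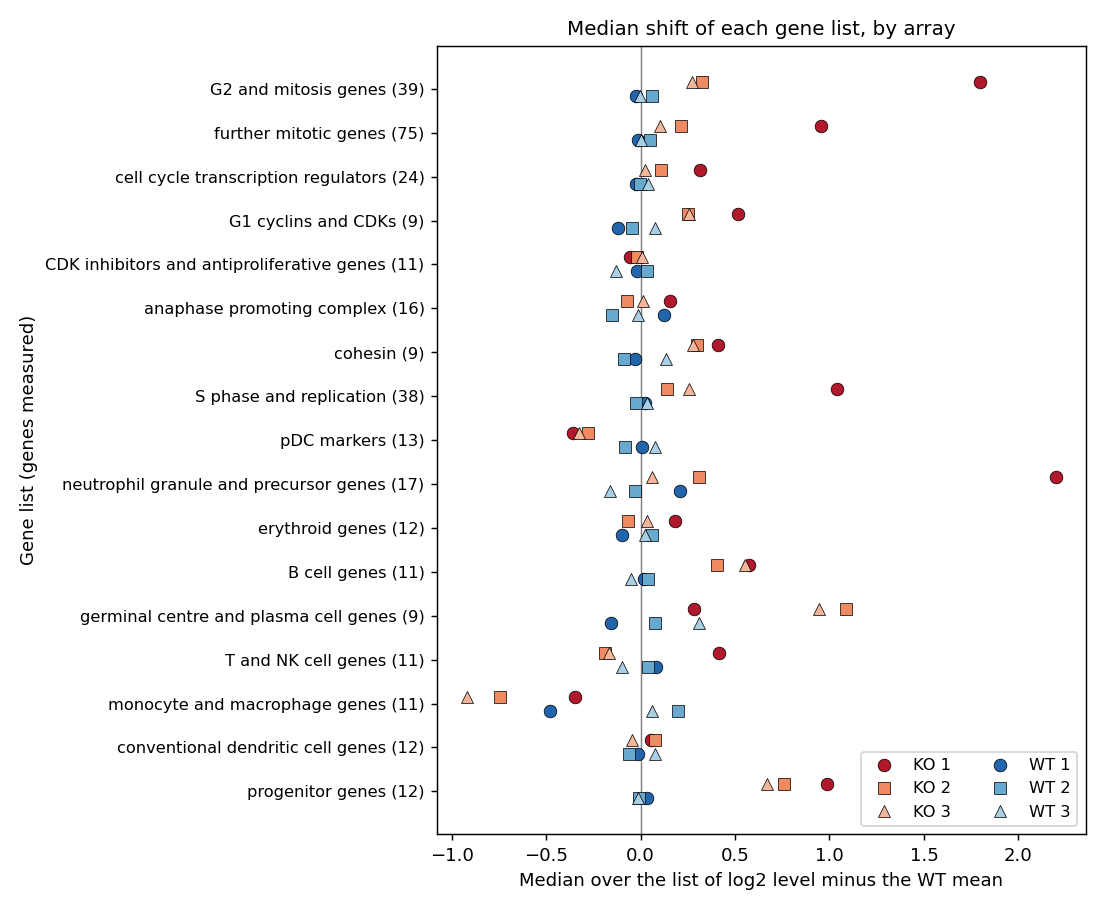
Points are the median over each gene list of the log2 level minus the gene's WT mean, for each array (red shades for KO, blue shades for WT, a shape for each replicate number), with the number of genes measured in brackets. KO replicate 1 stands far right for the G2 and mitosis genes (1.79) and the neutrophil genes (2.20). The medians of the B cell and progenitor genes are shifted in all 3 KO arrays, with a positive difference in 7 of the 11 B cell genes.

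Neutrophil granule and precursor genes were also highest in KO replicate 1. All 17 had their highest value there, and their median shift was 2.20, 0.31 and 0.06 in KO replicates 1 to 3 and 0.21, -0.03 and -0.16 in WT replicates 1 to 3. Their summed log2 level ran from 88.6 to 135.2 in KO and from 80.4 to 93.3 in WT, and limma called 0 of the 17 in either direction, with 0 higher and 0 lower at an unadjusted p under 0.05 and 0 by the unequal-variance test. No marker can be called absent without detection calls. S100a8, a cytosolic protein abundant in neutrophils, measured 12.70, 8.99 and 7.48 in KO replicates 1 to 3, against 9.34, 4.87 and 4.44 in WT replicates 1 to 3. S100a9, its partner in the calprotectin complex, measured 12.65, 9.73 and 7.25 in KO replicates 1 to 3, against 9.12, 5.99 and 4.94 in WT replicates 1 to 3. Ngp, a granule protein, measured 10.43, 5.76 and 5.62 in KO replicates 1 to 3, against 5.17, 4.46 and 4.45 in WT replicates 1 to 3. KO replicate 1 was the highest array for all 3 genes, and WT replicate 1 was the highest WT array. Without KO replicate 1, limma called 1 of the 17 higher in KO, which was Ngp (difference 0.999, limma adjusted p = 0.0420, range over alternatives 0.00349 to 0.692), and 0 lower. The part of neutrophil lineage cells in the high values of KO replicate 1 was not tested.

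Markers of other cells that divide in the spleen or marrow were set beside these values. Of 12 erythroid genes measured, limma called 0, with 2 higher and 1 lower at an unadjusted p under 0.05 and 0 by the unequal-variance test, and with shifts of 0.18, -0.07 and 0.03 in KO replicates 1 to 3. Of 11 B cell genes, 5 were called higher and 0 lower, Blk, Bank1 and Cd79a first among them, with median shifts of 0.57, 0.40 and 0.55. The B cell genes were not uniform: 7 of the 11 had a positive difference, and differences ran from -0.17 to 2.47. Of 12 progenitor genes, 5 were called higher, led by Myb, Sox4 and Erg, with shifts of 0.99, 0.76 and 0.67. Germinal centre and plasma cell genes shifted by 0.28, 1.09 and 0.94 in the KO arrays, against -0.16, 0.08 and 0.31 in the WT arrays. Of these 9 genes, Prdm1 and Sdc1 were called higher and 0 lower. This list was not uniform: 5 of the 9 had a positive difference, and differences ran from -0.97 to 3.49. Monocyte and macrophage genes shifted by -0.35, -0.74 and -0.92 in the KO arrays, against -0.48, 0.20 and 0.06 in the WT arrays. WT replicate 1 thus lay below KO replicate 1, and 2 of the 11 genes were called lower. T and NK cell genes shifted by 0.42, -0.19 and -0.16 in the KO arrays, against 0.08, 0.04 and -0.10 in the WT arrays. Limma called 0 of these 11, with 1 higher and 1 lower at an unadjusted p under 0.05 and 0 by the unequal-variance test. Summed log2 levels ran from 65.2 to 68.0 in KO and from 63.8 to 66.4 in WT for erythroid genes, from 64.6 to 67.6 in KO and from 56.1 to 57.2 in WT for B cell genes, and from 91.4 to 93.4 in KO and from 82.1 to 82.9 in WT for progenitor genes. The part of these cells in the G2 and mitosis values was not tested.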

How the data were processed

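The authors deposited log2 expression levels of 34760 probe sets on 6 arrays. Their range shows a log2 scale. Background correction, summarisation and normalization: not given in the sources used here. Per the labels' protocols, RNA was amplified with NuGen PICO SL. Gene symbols came from GEO's platform annotation: 21640 had 1 symbol, 1321 several and 11799 were not listed. The brightest probe set by 6-array mean stood for a gene, giving 19937 genes, and RefSeq names (GRCm38.p6) changed 0 symbols. All 39 member probe sets share a RefSeq transcript with their gene.

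KO was compared with WT by limma 3.58.1 in R 4.3.3 (lmFit and eBayes, no covariates, no filter, two-sided p adjusted by Benjamini-Hochberg over all genes, threshold 0.05). The fit was tested on simulated data with the same SD per gene in KO and WT. That setting does not cover the members, whose median SD was 0.97 in KO and 0.20 in WT. An exact permutation test of 3 against 3 arrays cannot go below 0.10. The alternatives were quantile normalization, centred medians, bright genes only, averaged probe sets, array weights, robust limma with a variance trend, the replicate number as a block, an unequal-variance test, and leaving out each array or both numbered 1. Same-numbered KO and WT arrays deviated together with correlations of 0.38, 0.097 and 0.25. Between arrays of different number the correlations ran from -0.31 to 0.20. The numbers were not taken as pairs because the labels state no pairing, and whether the arrays were paired was not tested. The number of arrays limits the precision. Figures were drawn with matplotlib 3.10.9.

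Members, lists and tests were chosen with earlier results of these data known. All members were named. Genes named from another list are among the 3 with the smallest adjusted p in it, except Ncapd3, Wee1 and Bora, and Irf8, Siglech and Ptprc, which the rule names. Printed promoters were the first 4 members by adjusted p whose window held both elements, not on chromosome 18.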

Additional observations from a re-analysis of the deposited data

How the results depend on the processing

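The 39 members gave 562 differences under the 15 alternatives. Of these, 529 kept their direction and their side of the threshold, 19 gained a call and 14 changed sign. With single arrays left out, differences ran from -0.041 to 0.75 for Ncapg, from -0.069 to 0.58 for Cdc25c, from -0.072 to 1.18 for Plk1, from -0.049 to 0.83 for Ttk, from -0.096 to 0.67 for Cdc20 and from -0.15 to 0.57 for Ect2, the negative values being those without KO replicate 1. With both arrays numbered 1 left out, Ncapg was at -0.17, Cdc25c at -0.071, Plk1 at -0.12, Ttk at -0.092, Cdc20 at -0.15, Ect2 at -0.022, Cdca8 at -0.089 and Kif20a at -0.087. None of these 8 genes was called in any setting.

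Members called higher numbered 0 with all arrays, 1 with the replicate number as a block (Tpx2), 7 with both arrays numbered 1 left out, and 0 to 5 when single arrays were left out. Members called lower numbered 0 with all arrays, 1 with array weights and 1 with the replicate block (Racgap1 in both), 2 with both arrays numbered 1 left out and 0 to 2 when single arrays were left out. The highest counts came without KO replicate 1. The block called 707 genes higher and 655 lower, against 459 and 415 without it. Only KO replicate 2 correlated better with another number (0.20 with WT replicate 3) than with its own (0.097). The members' median difference stayed positive, from 0.28 with both arrays numbered 1 left out to 1.21 among bright genes, where 16 members remained.

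Over all genes, counts called higher and lower were 716 and 647 with array weights, 741 and 641 with both arrays numbered 1 left out and 2 and 2 by the unequal-variance test per gene. With single arrays left out they ran from 249 to 780 and from 202 to 719, highest without KO replicate 1 and lowest without KO replicate 2. Further mitotic genes called higher numbered 7 with the block, 0 by the unequal-variance test and 1 to 5 with single arrays left out, against 4 with all arrays. The causes of these changes were not tested.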
